A study of Mus musculus with 18 samples.

Results

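The genes Otx2, Fgf5, Pou3f1, Zic2 and Zic5, known as markers of the primed epiblast, were followed in mouse embryonic stem cells without and with Pax7. They were taken by symbol from the deposited expression values, with the probe set of highest mean over the 18 arrays standing for each gene, and they are 5 of the 22180 genes measured. All 5 symbols were found. The probe sets were 17305830 for Otx2 (gene ID 18424, chromosome 14), 17439517 for Fgf5 (14176, chromosome 5), 17418268 for Pou3f1 (18991, chromosome 4), 17302878 for Zic2 (22772, chromosome 14) and 17309675 for Zic5 (65100, chromosome 14). Zic2 and Zic5 are next to each other among the protein-coding genes of chromosome 14.

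RNA was measured on Affymetrix arrays in Pax7-/- and Pax7+/+ cells of the F1 background C57Bl6N x 129Sv, with 3 biological replicates per genotype at each of days 0, 7 and 21. Day 0 cells were undifferentiated and grown with LIF, the cytokine that holds mouse embryonic stem cells undifferentiated. Material of days 7 and 21 came from embryoid bodies and their outgrowths, which were kept without LIF and with RA and ITS, as the labels abbreviate them. The labels do not say how many clones stood behind each genotype, so the p-values below measure the spread between these samples, which may all share a clone.

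Cells of the epiblast move after implantation from a naive to a primed state, in which they remain pluripotent but become ready to form the germ layers. Otx2, a homeodomain transcription factor, is known to start this move and to redirect the pluripotency factor Oct4 to new enhancers. Pou3f1 (Oct6) is a POU domain factor. Fgf5 is a secreted growth factor used as the classical marker of the primed epiblast, and Zic2 and Zic5 encode zinc finger factors of the epiblast and of the early neural plate. Otx2, Pou3f1 and the Zic genes are also active in the anterior neural plate, so a level of these transcripts in a mixed culture does not name the cell that holds them.

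RefSeq promoter windows on GRCm38.p6, from 250 bases before to 50 bases after a gene's start, were at hand for Otx2 (4 starts), Fgf5 and Zic5. They are shown so that a gene that passed the test at day 21 (Otx2) can be read beside a pair that did not (Fgf5 and Zic5). Bases in capitals mark matches to the motifs searched on both strands. The windows shown are Fgf5 (chr5:98253934-98254233, plus strand), Zic5 (chr14:122465609-122465908, minus strand), the outermost start of Otx2 (chr14:48667595-48667894, minus strand) and an inner start of Otx2 (chr14:48665060-48665359, minus strand), each written 5′ to 3′ on the gene's strand.
Fgf5: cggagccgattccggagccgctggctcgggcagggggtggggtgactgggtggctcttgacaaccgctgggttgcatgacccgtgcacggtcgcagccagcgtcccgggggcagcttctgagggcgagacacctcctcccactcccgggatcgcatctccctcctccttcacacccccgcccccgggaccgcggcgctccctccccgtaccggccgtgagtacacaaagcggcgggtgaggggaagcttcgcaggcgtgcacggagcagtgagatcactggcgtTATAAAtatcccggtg
Zic5: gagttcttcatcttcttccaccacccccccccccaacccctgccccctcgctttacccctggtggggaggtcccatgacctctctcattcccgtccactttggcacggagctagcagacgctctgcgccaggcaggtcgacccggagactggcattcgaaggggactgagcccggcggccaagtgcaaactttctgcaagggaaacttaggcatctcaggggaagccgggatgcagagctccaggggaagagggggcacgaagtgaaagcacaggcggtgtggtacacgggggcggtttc
Otx2 outermost start: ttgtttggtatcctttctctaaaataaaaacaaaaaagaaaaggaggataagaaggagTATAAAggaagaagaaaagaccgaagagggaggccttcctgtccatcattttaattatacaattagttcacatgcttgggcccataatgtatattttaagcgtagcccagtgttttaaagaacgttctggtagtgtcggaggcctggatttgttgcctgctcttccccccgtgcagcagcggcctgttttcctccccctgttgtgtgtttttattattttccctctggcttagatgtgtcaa
Otx2 inner start: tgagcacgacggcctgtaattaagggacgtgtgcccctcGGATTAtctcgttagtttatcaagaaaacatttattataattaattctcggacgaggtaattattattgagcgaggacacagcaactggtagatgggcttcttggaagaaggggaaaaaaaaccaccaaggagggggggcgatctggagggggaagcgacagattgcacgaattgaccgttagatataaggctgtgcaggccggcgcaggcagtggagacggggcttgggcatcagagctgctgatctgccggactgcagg

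The motif TAATCC, read by OTX and related homeodomain factors, was found once in the 6 windows of these genes, in reverse as GGATTA at position -211 from the inner Otx2 start. Of all 32851 RefSeq windows, 7.06% held it. The TATA motif TATAAA lay at position -192 from the outermost Otx2 start. It also lay at position 35 from the Fgf5 start, downstream of that start, and 13.6% of all windows held it. None of the 6 windows held the octamer ATTTGCAT (1.74% of all windows), the GLI and ZIC motif TGGGTGGTC (0.253%) or the ETS motif CCGGAAGT (3.89%), which says only that these letters are not in these windows. The windows differed in base composition, with 68.3% G and C and 29 CpG in Fgf5, 62.7% and 15 in Zic5, 41.7% and 6 at the outermost Otx2 start, and 51.0% and 16 at the inner Otx2 start shown, against medians of 52.7% and 7 over all windows.

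Values were spread less widely on some arrays than on others. In 10 arrays, called narrow here, the SD of log2 values over probe sets was 1.37 to 1.45, and in 8, called wide, it was 1.79 to 1.85. Pairs of arrays correlated at 0.914 to 0.990 within a set and at 0.653 to 0.789 between sets, over probe sets, which are not independent replicates. Each of the 6 groups held arrays of both sets, 2 narrow and 1 wide, except that Pax7-/- at day 21 and Pax7+/+ at day 7 held 1 narrow and 2 wide. Every test below therefore carried the array set as a block. What made the sets differ is not given in the sources used here. The Pax7 probe set read 5.86 to 6.37 in Pax7-/- and 5.61 to 6.35 in Pax7+/+ on narrow arrays, and 4.76 to 5.53 in Pax7-/- and 4.68 to 5.53 in Pax7+/+ on wide arrays. It did not tell the genotypes apart, and since the deleted part and the probes' place in the gene are not given, it checks no label.

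Values of the 5 genes on each array are log2 intensities, and 1 unit is a doubling on this scale. The plot of values by array shows all of them.

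**Figure D1:**
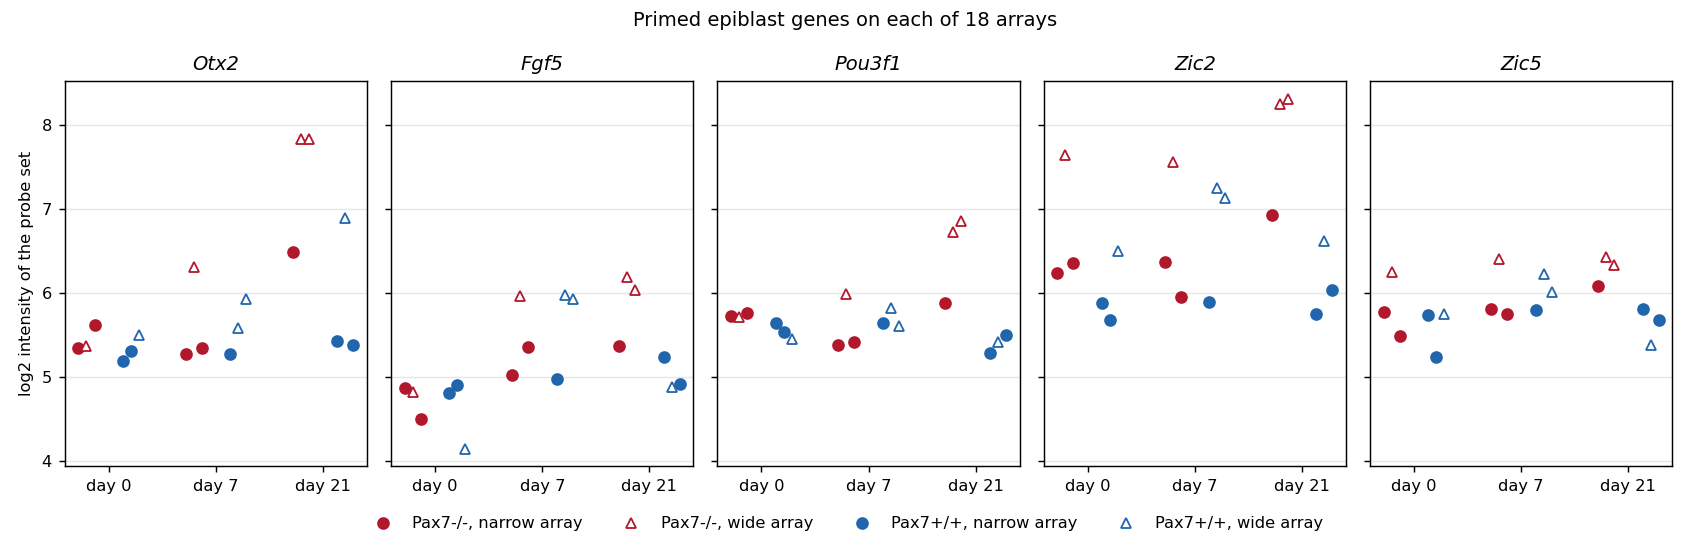
Log2 intensity of each of the 5 genes on every array, by day, with Pax7-/- (red) left of Pax7+/+ (blue). Filled circles are narrow arrays and open triangles are wide arrays, 3 arrays per genotype and day. At day 21 each Pax7-/- symbol lies above the Pax7+/+ symbols of the same shape for all 5 genes.

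Otx2, the factor that starts the primed programme, read 6.49, 7.83 and 7.83 at day 21 in Pax7-/- cells (replicates 1 to 3, the first narrow and the other two wide). In Pax7+/+ cells of day 21 it read 5.42, 6.89 and 5.38, where the value of 6.89 is the wide array. The wide Pax7+/+ array lay above the narrow Pax7-/- array, but within each set the genotypes did not overlap. Both wide Pax7-/- arrays and the wide Pax7+/+ array stood high. At day 0 the Pax7-/- arrays read 5.34, 5.37 and 5.62 and the Pax7+/+ arrays 5.19, 5.30 and 5.50. At day 7 they read 5.27, 6.31 and 5.34 in Pax7-/- and 5.28, 5.58 and 5.92 in Pax7+/+, and the genotypes overlapped on both days.

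Pou3f1, the POU factor of the group, read 5.88, 6.72 and 6.85 at day 21 in Pax7-/- cells. In Pax7+/+ cells of day 21 it read 5.29, 5.41 and 5.49. All 3 Pax7-/- arrays were above all 3 Pax7+/+ arrays, whatever the set. The share of all genes that separate in this way, with the sets pooled, is not given here. Pax7-/- at day 21 held 2 wide arrays and Pax7+/+ held 1, and the 5 genes read 0.24 to 1.14 log2 higher on wide arrays. At day 0 the values were 5.72, 5.72 and 5.76 in Pax7-/- and 5.64, 5.54 and 5.44 in Pax7+/+, which do not overlap either, though the gap was small. At day 7 they were 5.38, 5.98 and 5.42 in Pax7-/- and 5.64, 5.82 and 5.60 in Pax7+/+, with the Pax7-/- arrays lower on narrow and higher on wide arrays.

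Zic2, a zinc finger factor needed for forebrain and neural tube development, read 6.93, 8.25 and 8.31 at day 21 in Pax7-/- cells and 5.74, 6.62 and 6.03 in Pax7+/+ cells, again with no overlap. At day 0 it read 6.24, 7.64 and 6.35 in Pax7-/- and 5.88, 5.68 and 6.49 in Pax7+/+. The Pax7+/+ value of 6.49 is a wide array, and within each set the Pax7-/- arrays were above. At day 7 the values were 6.36, 7.56 and 5.95 in Pax7-/- and 5.89, 7.25 and 7.13 in Pax7+/+, also above within each set but by less. Of the 5 genes it was the one with the largest shift between sets, 1.14 log2 higher on wide than on narrow arrays.

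Zic5, the neighbour of Zic2, read 6.08, 6.42 and 6.33 at day 21 in Pax7-/- cells and 5.81, 5.38 and 5.68 in Pax7+/+ cells. The 3 Pax7-/- arrays were above the 3 Pax7+/+ arrays. On the earlier days the genotypes overlapped, at 5.77, 6.24 and 5.48 in Pax7-/- against 5.73, 5.23 and 5.74 in Pax7+/+ at day 0, and at 5.80, 6.40 and 5.75 in Pax7-/- against 5.80, 6.22 and 6.01 in Pax7+/+ at day 7. A second Zic5 probe set read 3.27 to 3.75 over all arrays and was not used, having the lower mean.

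Fgf5, the secreted ligand of the group, read 5.36, 6.18 and 6.03 at day 21 in Pax7-/- cells and 5.23, 4.88 and 4.92 in Pax7+/+ cells. The groups did not overlap, but the narrow Pax7-/- array was within 0.29 log2 of the mean of the narrow Pax7+/+ arrays. Ranked among all genes, Fgf5 lay at percentiles 26.2 to 55.2 on narrow and 31.9 to 66.9 on wide arrays. Whether its signal exceeded background was not tested. At day 0 the values were 4.87, 4.82 and 4.50 in Pax7-/- and 4.81, 4.91 and 4.15 in Pax7+/+. At day 7 they were 5.02, 5.96 and 5.36 in Pax7-/- and 4.98, 5.97 and 5.93 in Pax7+/+, with wide arrays at 5.93 or more in both genotypes.

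The first comparison asked whether the loss of Pax7 altered these genes at each day. At day 21, 3 of the 5 rose in Pax7-/- relative to Pax7+/+ cells, where 3.82% of all genes tested were called higher (4.89% in either direction). Zic2 was 2.50-fold higher (1.32 ± 0.17 log2, SE, adjusted p = 0.000407), Otx2 2.36-fold (1.24 ± 0.27, adjusted p = 0.0120) and Pou3f1 2.01-fold (1.01 ± 0.18, adjusted p = 0.00417), with n = 3 arrays per group. P-values are from limma with Benjamini-Hochberg adjustment over 22180 genes, and a gene passed under 0.05. Fgf5 (0.75 ± 0.28 log2, adjusted p = 0.159) and Zic5 (0.55 ± 0.18 log2, adjusted p = 0.108) did not pass, with 95% intervals of 0.16 to 1.35 and 0.16 to 0.94. The median of the 5 differences was 1.01 log2, beside -0.01 over all genes.

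**Figure D2:**
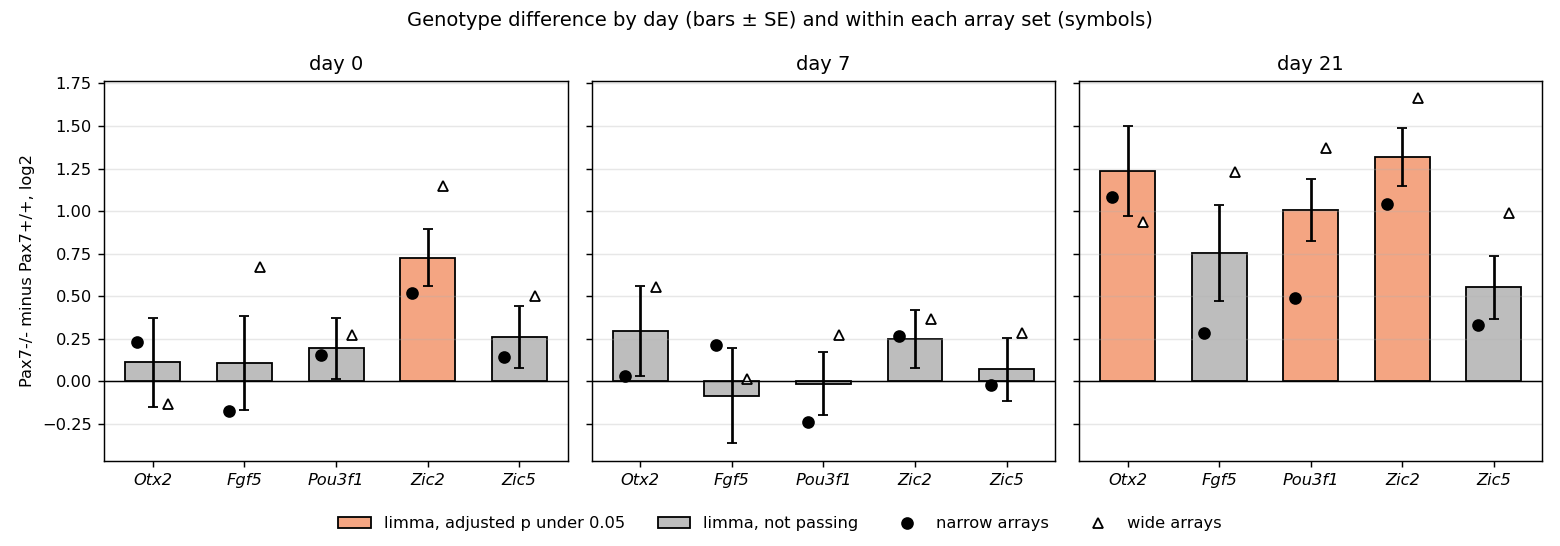
Difference Pax7-/- minus Pax7+/+ in log2 for each gene at days 0, 7 and 21. Bars are limma estimates with the array set as a block, ± SE, orange where the adjusted p was under 0.05, and symbols are the differences of means on narrow (circles) and wide (triangles) arrays. At day 21 all 10 symbols lie above 0, from 0.29 to 1.66.

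Within the array sets the day 21 differences on narrow and on wide arrays were 1.09 and 0.94 log2 for Otx2, 0.49 and 1.37 for Pou3f1, 1.04 and 1.66 for Zic2, 0.33 and 0.99 for Zic5, and 0.29 and 1.23 for Fgf5. In both sets all Pax7-/- arrays were above all Pax7+/+ arrays for all 5 genes, which 18.8% of all genes also met. On narrow arrays alone, with 1 Pax7-/- array at day 21, Pou3f1 no longer passed. The wide set held 1 Pax7+/+ array at day 21, and its fit had 2 residual degrees of freedom. No call is therefore drawn from that fit for Fgf5 and Zic5, at 1.23 and 0.99 log2. Without the array set in the limma fit no gene passed at any day, and 539 genes, the 5 among them, had an unadjusted p under 0.05 at day 21. Otx2 lost its day 21 call without replicate 2 or replicate 3 of Pax7-/- at day 21 (1.14 log2 each, adjusted p = 0.0516 and 0.0531), and Zic2 and Pou3f1 kept theirs without any 1 of the 18 arrays.

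At day 0, Zic2 alone passed, at 0.73 ± 0.17 log2 or 1.66-fold higher in Pax7-/- cells (limma, adjusted p = 0.0409), where 0.388% of all genes were called higher (1.28% in either direction). The call was lost in 12 of 18 fits that left out 1 array, with adjusted p = 0.0510 to 0.205, and the values of all 18 fits ran between 0.56 and 0.85 log2. The arrays whose removal ended the call were all those of Pax7+/+ day 7, all of Pax7-/- day 0, Pax7+/+ day 0 replicates 2 and 3, Pax7+/+ day 21 replicate 1, Pax7-/- day 7 replicate 1, and Pax7-/- day 21 replicates 2 and 3. It was also lost with a replicate block (adjusted p = 0.0703) and on narrow arrays alone (0.52 log2, adjusted p = 0.231), against 1.15 log2 on wide arrays. The other 4 genes differed by 0.11 to 0.26 log2 with adjusted p from 0.640 to 0.928. Zic2 and Pou3f1 were above in both sets, as were 12.1% of all genes.

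At day 7 none of the 5 genes passed in limma and none had an unadjusted p under 0.05, where 0.627% of all genes passed. Differences were 0.30 ± 0.27 log2 for Otx2, -0.01 ± 0.18 for Pou3f1, 0.25 ± 0.17 for Zic2, 0.07 ± 0.18 for Zic5 and -0.08 ± 0.28 for Fgf5. The 95% intervals reached up to 0.86 log2 for Otx2 and 0.61 for Zic2, so differences of up to those sizes lie within the error. Zic2 was above in both sets, like 15.3% of all genes.

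The next comparisons followed the genes through differentiation within each genotype. In Pax7-/- cells 4 of the 5 genes rose between day 0 and day 21, where 4.92% of all genes did (8.97% passed in either direction). Otx2 was 1.69 ± 0.27 log2 higher at day 21 than at day 0 (3.23-fold, adjusted p = 0.000916), Fgf5 1.04 ± 0.28 (adjusted p = 0.0314), Zic2 0.70 ± 0.17 (adjusted p = 0.0169) and Pou3f1 0.67 ± 0.18 (adjusted p = 0.0332), all from limma. Zic5 differed by 0.35 ± 0.18 log2 (adjusted p = 0.275). Otx2 and Zic2 rose between days 7 and 21 (1.50 ± 0.27 and 0.82 ± 0.17 log2, adjusted p = 0.0136 and 0.0297, with 0.455% of all genes called higher and 0.834% in either direction). From day 0 to day 7, where 3.86% of all genes passed, none of the 5 did, and Fgf5 had the largest of the 5 differences at 0.72 ± 0.27 log2 (adjusted p = 0.185). Pou3f1 stood at 0.81 ± 0.18 log2 between days 7 and 21 (adjusted p = 0.0521). It passed over that step after quantile normalization (adjusted p = 0.0155), with arrays scaled to the same SD (0.0232) and with dim genes left out (0.0399). Those fits called 332, 232 and 205 genes over that step, against 185 in the main fit. On wide arrays alone, with 1 Pax7-/- array at day 7, Pou3f1 differed by 0.80 log2. Pou3f1 also passed without Pax7+/+ day 0 replicate 3 (0.0454), Pax7+/+ day 21 replicate 2 (0.0449) or Pax7-/- day 21 replicate 1 (0.00228). The last is the only narrow array of its group.

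**Figure D3:**
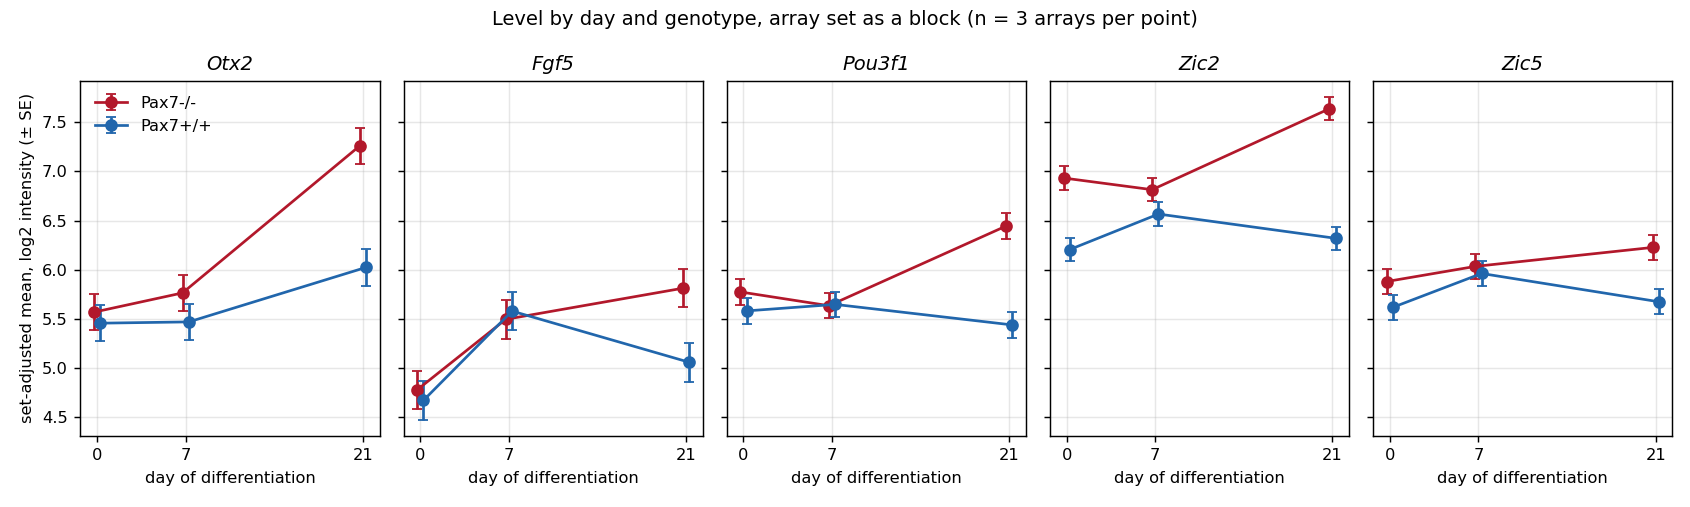
Set-adjusted mean log2 intensity (± SE, 3 arrays per point) of the 5 genes against day of differentiation, for Pax7-/- (red) and Pax7+/+ (blue). For Otx2 the means are 5.57, 5.76 and 7.26 at days 0, 7 and 21 in Pax7-/- cells and 5.46, 5.47 and 6.02 in Pax7+/+ cells.

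Several of these rises rested on few arrays. Between days 0 and 21 Fgf5 was lost without Pax7-/- day 0 replicate 2 or 3 or day 21 replicate 2 or 3 (adjusted p = 0.0742 to 0.186), Pou3f1 without Pax7-/- day 0 replicate 2 or day 21 replicate 2 or 3 (0.121 to 0.247), and Zic2 without Pax7-/- day 21 replicate 2 or 3 (0.0593 and 0.0701). Otx2 kept its call over that interval in all 18 such fits. Between days 7 and 21 Otx2 was lost without Pax7-/- day 7 replicate 1 or 3 or day 21 replicate 2 or 3 (0.0537 to 0.0698), and Zic2 without any Pax7-/- day 7 array or day 21 replicate 2 or 3 (0.0645 to 0.144). On narrow arrays alone 1 Pax7-/- array was left at day 21. There the day 0 to day 21 calls of Fgf5 (0.68 log2), Zic2 (0.63) and Pou3f1 (0.14) were lost. The day 7 to day 21 call of Zic2 was lost there too (0.77 log2). It was also lost with a replicate block (0.84 log2, adjusted p = 0.0694). The rise of Pou3f1 from day 0 was 1.07 log2 on wide arrays. It did not pass after quantile normalization (0.41 log2, adjusted p = 0.0999).

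In Pax7+/+ cells none of the 5 genes passed over any step, where 5.69%, 5.85% and 14.6% of all genes passed from day 0 to 7, day 7 to 21 and day 0 to 21. Fgf5 was 0.91 ± 0.28 log2 higher at day 7 than at day 0 (limma, adjusted p = 0.0740) and -0.52 ± 0.28 log2 at day 21 relative to day 7 (adjusted p = 0.345). On wide arrays alone these steps of Fgf5 were 1.81 and -1.07 log2, and on narrow arrays they were 0.12 and 0.10 log2. The wide set held 1 Pax7+/+ array at day 0 and 1 at day 21, so no call is drawn from it. The first step passed when Pax7+/+ day 0 replicate 2 (adjusted p = 0.0480) or day 7 replicate 1 (0.0266) was left out. The latter is the only narrow array of its group. Otx2 stood 0.57 ± 0.26 log2 higher at day 21 than at day 0 (adjusted p = 0.170), with 0.16 on narrow and 1.39 on wide arrays. Zic2, Zic5 and Pou3f1 lay within 0.14 log2 of their day 0 level at day 21, though for Zic5 the sets went opposite ways, with 0.26 on narrow and -0.36 on wide arrays.

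Whether the genotype difference itself changed over time was tested as an interaction, and none of the 5 genes passed in limma. From day 0 to day 7, where 0.482% of all genes passed, Zic2 had -0.48 ± 0.24 log2 (adjusted p = 0.557). From day 7 to day 21, where 0.911% of all genes passed, the difference grew by 1.07 ± 0.24 log2 for Zic2 (adjusted p = 0.0505), 1.02 ± 0.27 for Pou3f1 (adjusted p = 0.102) and 0.94 ± 0.38 for Otx2 (adjusted p = 0.378), each with an unadjusted p under 0.05. From day 0 to day 21, where 1.86% passed, the changes were 1.12 ± 0.37 log2 for Otx2 (adjusted p = 0.159), 0.81 ± 0.26 for Pou3f1 (0.136) and 0.59 ± 0.24 for Zic2 (0.264). The calls were close to the threshold: Zic2 passed from day 7 to day 21 without Pax7+/+ day 0 replicate 3, Pax7+/+ day 21 replicate 3 or Pax7-/- day 0 replicate 2 (adjusted p = 0.0448 to 0.0494). Pou3f1 passed over both intervals without Pax7-/- day 21 replicate 1 (0.0182 and 0.0161), and Otx2 from day 0 to day 21 without Pax7+/+ day 21 replicate 2 (0.0354). These are the only narrow array of the first group and the only wide array of the second. Without them each group lay in a single array set, so its estimate rests on the fitted set shift. A difference that passed at day 21 and not at day 7 was thus not shown to differ between the days.

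Ordered by set-adjusted mean, Pax7-/- at day 21 was the highest of the 6 groups for each of the 5 genes. On wide arrays alone Zic5 was as high in Pax7-/- cells at day 7 (6.40 on 1 array) as at day 21 (a mean of 6.38 on 2 arrays). For Otx2 the next group was Pax7+/+ at day 21, 1.24 log2 lower. For Pou3f1 and Zic2 it was Pax7-/- at day 0, 0.67 and 0.70 log2 lower, and each of these gaps passed. Below the top group no neighbouring pair differed beyond its error. For Zic5 and Fgf5 no neighbouring pair differed beyond its error, and Fgf5 had its lowest mean at day 0 in both genotypes, at 4.78 log2 in Pax7-/- and 4.67 in Pax7+/+.

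Error differed among the genes. The residual SD was 0.365 log2 for Otx2 and 0.386 for Fgf5, against a median of 0.176 over all genes, and 0.215 to 0.239 for the other 3. Over the 18 arrays, after centring within each set, the strongest pair was Pou3f1 with Zic2 (r = 0.852) and the next Otx2 with Pou3f1 (0.764), followed by the neighbours Zic2 and Zic5 (0.758). Otx2 and Zic5 were the least alike (0.259). Among all genes, Zic2 ranked 29 in likeness to Pou3f1, Pou3f1 ranked 543 to Otx2, and Zic5 ranked 115 to Zic2. In the reverse direction Pou3f1 ranked 16 to Zic2, Otx2 ranked 159 to Pou3f1, and Zic2 ranked 18 to Zic5. All arrays share the groups of the design, so these values are a description. The genes with the most similar pattern, by the same measure, were Fbxl7 (0.952), Spata13 (0.951) and Sox1 (0.940) for Otx2, St6gal2 (0.904), Hesx1 (0.903) and AW551984 (0.900) for Pou3f1, and Dusp4 (0.912), Mdh1 (0.887) and Clcn3 (0.877) for Zic2. For Zic5 they were Zik1 (0.894), Cyfip2 (0.874) and Ccdc88a (0.838), and for Fgf5 Nsd2 (0.877), Slc25a30 (0.870) and Mir721 (0.863).

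Paralogs of the 5 genes were read in the same way. Otx1, the second Otx gene of the forebrain, was 1.21 ± 0.34 log2 higher in Pax7-/- than in Pax7+/+ cells at day 21 (limma, adjusted p = 0.0499), and it rose by 1.71 log2 between days 0 and 21 in Pax7-/- cells. Crx, an Otx-class factor of photoreceptors, stood at -0.02 log2. The other POU3 genes, Pou3f2, Pou3f3 and Pou3f4, differed by 0.21, 0.33 and 0.27 log2 at day 21 and did not pass, and Pou3f3 rose by 1.15 log2 from day 0 to day 21 in Pax7-/- cells (adjusted p = 0.0300). Zic1 and Zic4, the measured Zic paralogs, stood at 0.64 (adjusted p = 0.220) and 0.13 log2 at day 21, and Zic1 rose by 1.02 log2 from day 0 to day 21 in Pax7-/- cells (adjusted p = 0.0257) and by 1.00 log2 from day 0 to day 7 in Pax7+/+ cells (adjusted p = 0.0359).

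Of 26 other genes of the primed and formative epiblast, 8 were higher and none lower in Pax7-/- than in Pax7+/+ cells at day 21, where 3.82% of all genes were higher, with a median of 0.48 log2 beside -0.01 over all genes. They were led by Utf1 (1.45 log2), a chromatin factor of pluripotent cells, Pim2 (1.44), a kinase, Dnmt3b (1.41), a de novo DNA methyltransferase, and Cdh2 (1.21), N-cadherin. At day 0 Epha4, a receptor of ephrins, alone of these 26 was higher (1.35 log2), where 0.388% of all genes were called higher. At day 7 none passed, where 0.627% of all genes did. From day 0 to day 21 in Pax7-/- cells, where 8.97% of all genes passed in either direction, 13 of the 26 rose, Sox11 by 1.83 log2, and 6 fell, Utf1 by 2.29, Tcf15 by 1.89 and Dnmt3l by 1.88 log2. In Pax7+/+ cells, where 14.6% of all genes passed, 1 of the 26 rose over that interval (Epha4, 0.76 log2) and 8 fell, with Utf1 at -4.01, Dnmt3l at -2.24 and Lefty1 at -1.23 log2. Utf1 thus fell in both genotypes, with the smaller estimate in Pax7-/- cells. No test of the difference between these falls is given here.

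The FGF pathway carries the Fgf5 signal. At day 21, 3 of its 18 genes were higher in Pax7-/- than in Pax7+/+ cells and none lower, beside 3.82% of all genes higher, with a median of 0.28 log2. They were the receptor Fgfr1 (1.24 ± 0.13 log2, adjusted p = 8.64e-05), the MAP kinase phosphatase Dusp4 (1.01 ± 0.10, adjusted p = 8.77e-05) and the inhibitor Spred2 (0.68 ± 0.12, adjusted p = 0.00380). Spry4, another inhibitor, was higher at day 0 (1.39 ± 0.30 log2, limma, adjusted p = 0.0299), where 0.388% of all genes were called higher.

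**Figure D4:**
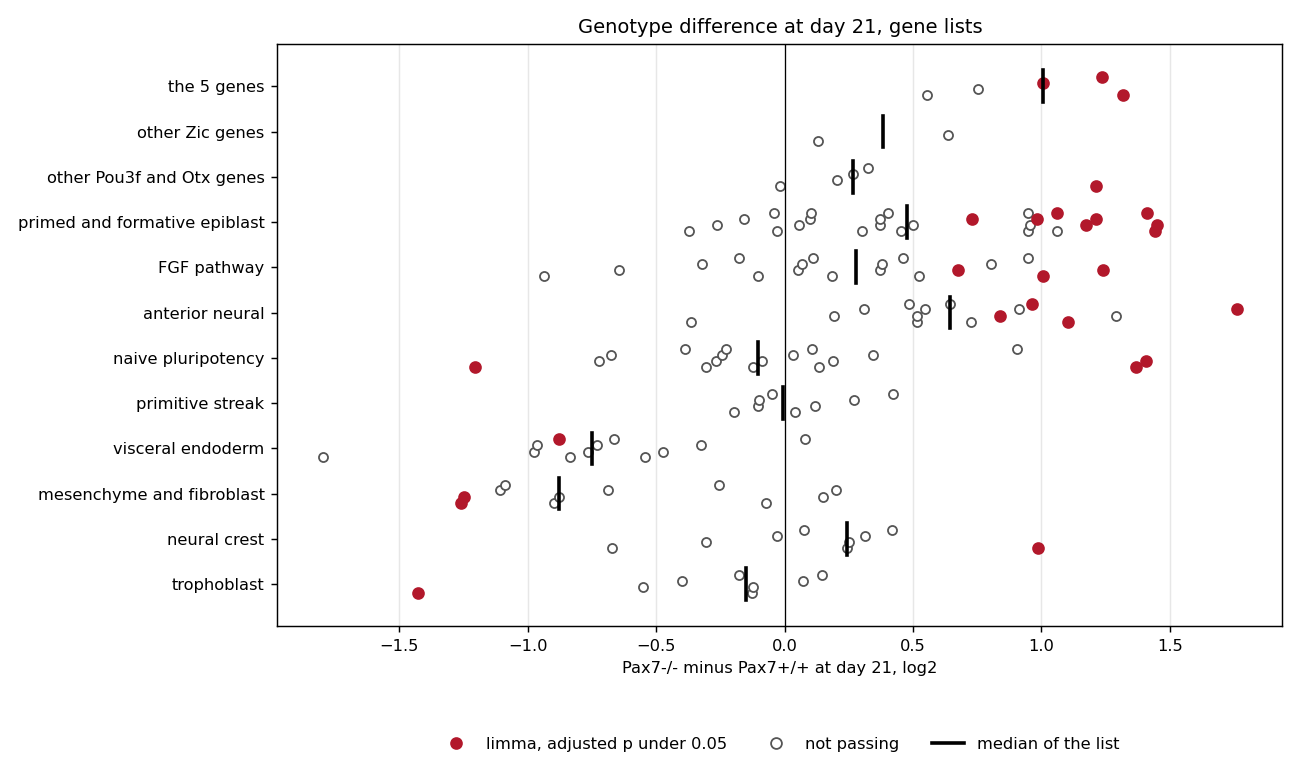
Difference Pax7-/- minus Pax7+/+ at day 21 in log2 for each gene of each list, red where the adjusted p was under 0.05, with a black bar at the list's median. The medians are 1.01 for the 5 genes, 0.64 for anterior neural genes, 0.48 for primed and formative epiblast genes and -0.88 for mesenchyme genes.

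Markers of other cell types also differed at day 21, and in these bulk samples fewer cells of a type and less RNA per cell cannot be told apart. Of 15 anterior neural markers 4 were higher in Pax7-/- cells and none lower, beside 3.82% of all genes higher, namely Sox1 (1.76 log2), Hesx1 (1.10), Wnt1 (0.96) and En1 (0.84). Their summed level at day 21, in log2, was 9.94 in Pax7-/- and 9.59 to 9.77 in Pax7+/+ on narrow arrays, and 11.1 to 11.2 in Pax7-/- and 10.4 in Pax7+/+ on wide arrays. Naive pluripotency markers went both ways, with Sox2 (1.41 log2) and Nanog (1.37) higher and Klf4 (-1.20) lower of 18, and summed levels of 10.1 in Pax7-/- and 10.2 to 10.3 in Pax7+/+ on narrow arrays and 11.5 to 11.6 in Pax7-/- and 11.4 in Pax7+/+ on wide arrays. Of all 22180 genes, 847 were called higher and 238 lower at day 21. Sox2 is also a factor of neural progenitors. None of 8 primitive streak markers passed, with Wnt3 at 0.42 and Eomes at 0.27 log2.

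Lower in Pax7-/- cells at day 21 were Dab2 (-0.88 log2) of 12 visceral endoderm markers, Dcn (-1.25) and Pdgfra (-1.26) of 11 mesenchyme and fibroblast markers, and Plet1 (-1.43) of 8 trophoblast markers. Of 9 neural crest markers Sox9 was higher (0.99 log2). Plet1 was also lower at day 7 (-1.21 log2, limma, adjusted p = 0.00650). Snai2, a neural crest marker, was higher at day 7 (0.99 log2, adjusted p = 0.0477), where 0.627% of all genes passed. Of all 22180 genes, 238 were called lower and 847 higher at day 21. The summed visceral endoderm level was 10.2 in Pax7-/- and 10.9 in Pax7+/+ on narrow arrays, and 11.2 to 11.4 in Pax7-/- and 12.5 in Pax7+/+ on wide arrays. For mesenchyme and fibroblast markers it was 9.48 in Pax7-/- and 10.1 to 10.5 in Pax7+/+ on narrow arrays, and 10.6 to 11.1 in Pax7-/- and 12.1 in Pax7+/+ on wide arrays. The trophoblast sum was 8.67 in Pax7-/- and 9.02 to 9.16 in Pax7+/+ on narrow arrays, and 8.48 to 8.58 in Pax7-/- and 9.80 in Pax7+/+ on wide arrays, and the neural crest sum 9.30 in Pax7-/- and 9.12 to 9.21 in Pax7+/+ on narrow arrays, and 10.1 to 10.2 in Pax7-/- and 9.90 in Pax7+/+ on wide arrays. Beside the Zic2 difference of day 0, Gata6 (1.26 log2) and Cubn (1.85), 2 of 12 visceral endoderm markers, were also higher in Pax7-/- cells. On that day 0.388% of all genes were called higher. The part of these cell types in the differences of the 5 genes was not tested.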

How the data were processed

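Total RNA of 18 samples (3 per genotype and day) was measured on Affymetrix arrays. Each probe set's deposited value is a log2 intensity, and RMA and Partek are named per the submitters' processing notes, without version or order. Other upstream steps are not given in the sources used here. Of 41345 probe sets, 23521 carried 1 symbol, 1814 several and 16010 none, and the probe set of highest mean per symbol gave 22180 genes, 21994 of them matched to RefSeq by gene ID. Dim genes were kept.

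The model of 6 group means was fitted by limma 3.58.1 (eBayes without trend, R 4.3.3) with the array set (SD over probe sets above 1.6 called wide) as a block, with 11 residual degrees of freedom and 12 comparisons. Adjusted p-values are Benjamini-Hochberg over all genes. Precision is limited by the number of arrays, and the smallest exact permutation p for groups of 3 and 3 is 0.1. That holds with the array set ignored, and permuting within sets allows fewer arrangements. Replicate numbers were not used to pair the samples. Residuals of arrays with the same number and day correlated between -0.215 and 0.231 over 9 pairs. With 3 arrays per group, and some pairs split between array sets, these values cannot exclude a shared replicate effect. A replicate block ended the Zic2 calls of day 0 and, in Pax7-/- cells, of day 7 to 21.

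The 5 genes and the gene lists were chosen with earlier results of these data known. From each list up to 4 passing genes were named for each comparison described, largest difference first. Where none passed, up to 2 of smallest p were named. Passing genes of comparisons left out, such as the steps over days for the markers of cell types, are not named. For likeness the 3 genes of highest r were named, predicted genes passed over. The code was tested on simulated data. Alternatives were quantile normalization, one SD per array, a filter at the 25th percentile, the mean of probe sets, other block and eBayes settings, each array set alone, and removal of single arrays. Plots came from matplotlib 3.10.9 under Python 3.11.15.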

Additional observations from a re-analysis of the deposited data

Results flagged for a closer look

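Pou3f1 was singled out because its values moved in opposite directions in the 2 genotypes within both array sets. Day 21 minus day 7 was 0.48 log2 on narrow and 0.80 on wide arrays in Pax7-/- cells, and -0.25 and -0.30 in Pax7+/+ cells. Neither step passed in limma (0.81 log2, adjusted p = 0.0521 in Pax7-/-, and -0.21 log2, adjusted p = 0.618 in Pax7+/+). The change of the genotype difference was 1.02 log2 (limma, adjusted p = 0.102). Day 21 minus day 0 was 0.14 and 1.07 log2 in Pax7-/- and -0.20 and -0.03 in Pax7+/+ cells, where the Pax7+/+ step did not pass (-0.14 log2, adjusted p = 0.672), for a change of 0.813 log2 (adjusted p = 0.136). Neither interaction passed, and each passed when Pax7-/- day 21 replicate 1, the only narrow array of its group, was left out.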

How the results depend on the processing

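Of the 10 differences of the 5 genes that passed, values under 27 alternatives each kept their direction, with 219 values still passing and 51 not. Of 1350 values that had not passed, 33 passed and 54 had the other sign. Without the array set, 0 of the 5 genes passed at days 0 and 21, against 1 and 3. In Pax7-/- cells 0 passed from day 7 to 21 and from day 0 to 21, against 2 and 4. Over all 22180 genes that fit called 0, 0, 3 and 8, against 284, 1085, 185 and 1989. With a replicate block beside the array set, 0 passed at day 0 and 1 in Pax7-/- cells from day 7 to 21 (Zic2, adjusted p = 0.0694, was lost), and no other call among the 5 genes was lost. That fit called 238 of all genes at day 0 and 105 from day 7 to 21 in Pax7-/- cells. Each array set alone left 1 array in some groups (2 residual degrees of freedom on wide arrays), so its counts are not given here. Calls weakened on narrow arrays are named above. The change of the genotype difference from day 7 to 21 gave 2 after quantile normalization, against 0. It gave 1 with the filter and 1 with trend and robust settings. Over all genes these 3 fits called 279, 196 and 180 for that change, against 202. Leaving out 1 array gave 0 to 1 at day 0, 2 to 3 at day 21, 0 to 3 from day 7 to 21 and 1 to 4 from day 0 to 21 in Pax7-/- cells, 0 to 1 from day 0 to 7 in Pax7+/+ cells, 0 to 1 for each change of the genotype difference up to day 21, and 0 in the other comparisons. Over all genes the fits without 1 array called 120 to 347 at day 0 and 659 to 1284 at day 21. In Pax7-/- cells they called 46 to 548 from day 7 to 21 and 597 to 2717 from day 0 to 21. In Pax7+/+ cells from day 0 to 7 they called 612 to 1585. For the changes up to day 21 they called 64 to 307 from day 7 and 188 to 591 from day 0. What moved the counts between settings was not tested. Over all genes, 1085 passed at day 21 and 284 at day 0, against 0 on both days without the array set. After quantile normalization 1382 and 466 passed. The share of calls that were higher at day 21 was 78.1%, against 63.4% after quantile normalization and 62.8% with one SD per array. These shares also moved for the changes of the genotype difference (68.2% to 58.1% and 56.5% from day 0 to 7, 79.2% to 61.3% and 54.2% from day 7 to 21, 80.8% to 62.6% and 57.6% from day 0 to 21) and in Pax7+/+ cells (23.4% to 37.8% from day 7 to 21, 34.0% to 45.5% from day 0 to 21, with quantile normalization).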
